A study of Homo sapiens with 6 samples.

Results

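The IRAK kinases and the proteins that work with them at the receptor were followed as 10 genes chosen by symbol: IRAK1, IRAK2, IRAK3, IRAK4, MYD88, TIRAP, TRAF6, TOLLIP, PELI1 and PELI2. All 10 were found among the 20683 genes of the count files. They are the complex in which the drug target, IRAK4, acts. Cells of the established human fibrosarcoma line HT-1080 were kept for 24 h either with an IRAK4 inhibitor, code name SLV-8472-01, or with 0.1% DMSO alone. The inhibitor's concentration reads 5 mM in the labels, and nothing here allowed that unit to be checked. Each group had 3 libraries, described by the series as biological replicates. No stimulus of the pathway is named in the labels. The comparison asked whether the transcripts of the target complex differ between inhibited and control cells.

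When a Toll-like receptor or a receptor of the interleukin-1 family binds its ligand, the adaptor MYD88 gathers beneath it, with TIRAP as a bridge at some receptors, and recruits IRAK4 and then IRAK1 or IRAK2 into an assembly called the myddosome. The kinases pass the signal to the ubiquitin ligase TRAF6, whose chains recruit the kinases that switch on NF-kB and MAP kinase pathways. IRAK3, also called IRAK-M, is an inactive family member known mostly from monocytes and macrophages, and TOLLIP restrains the pathway, while PELI1 and PELI2 are ubiquitin ligases of the Pellino family that bind IRAKs. An inhibitor of the kinase acts on the protein, so transcript counts do not measure its effect on IRAK4 activity.

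RNA was read with a panel that amplifies a short product of each gene, and the library totals ranged from 9162281 to 13184553 counts. The DMSO 3 library stood apart. Over genes with a mean count of at least 50, the median absolute log2 difference was 0.317 between DMSO 3 and DMSO 1 and 0.248 between DMSO 3 and DMSO 2, against 0.155 between DMSO 1 and DMSO 2 and 0.122 to 0.130 among the inhibitor libraries. Each named fold change, except that of PELI3, is therefore also given without DMSO 3. All 8 mesenchymal markers, VIM and SPARC among them, were counted in every library, and their summed level was 10531 to 10998 CPM (each library's counts as a share of its scaled total) in the inhibitor group and 10150.2 to 11876 CPM in the DMSO group. Of 8 epithelial markers, 4 were at 0 in all libraries, CDH1 among them, and only CLDN4 exceeded 3 counts in any library. The epithelial markers summed to 1.39 to 2.18 CPM with inhibitor and 0.547 to 0.989 CPM with DMSO, and their part in the results below was not tested. Of 8 leukocyte markers, 4 were at 0, PTPRC among them. The list summed to 250.2 to 291 CPM with inhibitor and 321 to 371 CPM with DMSO, nearly all of it from CD68, which many other cell types transcribe. CSF1R, with 17 to 28 counts, and LYZ, with 1 to 12, also exceeded 3 counts in a library. The part of the leukocyte markers was likewise not tested.

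Of the 10 genes, 8 had enough counts to be tested and 2, MYD88 and IRAK3, were close to 0. To see what a silent gene looks like in these libraries, 20 genes restricted to other tissues were read the same way. Of these, 14 had no count in any library and 18 had at most 3 in every library, while the highest, CD3D, ranged from 0 to 10. By this yardstick MYD88 and IRAK3 were in the range of silent genes, IRAK4 with 9 to 20 counts overlapped the highest of them, and the other 7 genes lay above all of them in every library. A count in this panel depends on how well 1 product of a gene amplifies, so the order of counts among genes is not the order of their transcript levels, and a count near 0 does not show that a transcript is absent.

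MYD88, the adaptor at the base of the assembly, had 0, 1 and 0 counts in inhibitor 1 to 3 and 2, 1 and 0 in DMSO 1 to 3. No library stood out. The sums were 1 count in 32403674 for the inhibitor group and 3 in 35526863 for the DMSO group. With exact 95% Poisson limits, which cover counting error only, these allow up to 0.172 and 0.247 CPM. No difference was detectable at this depth. TIRAP, the bridging adaptor, was counted steadily, at 30, 34 and 30 counts with inhibitor and 33, 35 and 26 with DMSO. The groups overlapped, with means of 2.87 ± 0.364 CPM (SD, n = 3) with inhibitor and 2.72 ± 0.181 CPM (SD, n = 3) with DMSO, where CPM is scaled by TMM, a trimmed mean of ratios between libraries. The log2 fold change of TIRAP, inhibitor over DMSO, was 0.07 (SE 0.238, edgeR quasi-likelihood test, Benjamini-Hochberg adjusted p = 0.904), with a 95% interval from 0.739-fold to 1.5-fold. It stayed small without DMSO 3, at 0.10 (edgeR adjusted p = 0.823).

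The target itself was thinly counted. IRAK4, the first kinase of the relay, had 12, 18 and 9 counts in the inhibitor libraries and 9, 16 and 20 in the DMSO libraries. The highest level of the 6 was in DMSO 3, at 2.25 CPM, and the lowest in DMSO 1, at 0.704 CPM, so the control group spanned the whole inhibitor group. Its means were 1.17 ± 0.374 CPM (SD, n = 3) with inhibitor and 1.39 ± 0.788 CPM (SD, n = 3) with DMSO. IRAK4 thus had a log2 fold change of -0.16, with an SE of 0.427 (edgeR adjusted p = 0.880). The 95% interval reached from 0.474-fold to 1.69-fold, so neither a fall nor a rise within these bounds was excluded. These bounds lie around the estimate and do not give the size of change that would have been detected. Without DMSO 3 the log2 fold change was 0.27 (SE 0.440, edgeR adjusted p = 0.701), of the opposite sign.

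IRAK1, the kinase that IRAK4 phosphorylates, had the most counts of the 10 genes. There were 330, 296 and 236 counts in the inhibitor libraries and 418, 441 and 263 in the DMSO libraries. After scaling these were 27.0, 26.4 and 24.6 CPM against 32.7, 33.6 and 29.6 CPM. Every inhibitor library was below every DMSO library. The means were 26.0 ± 1.26 CPM (SD, n = 3) and 32.0 ± 2.08 CPM (SD, n = 3), which is -0.30 on the log2 scale (SE 0.129), with a 95% interval from 0.670-fold to 0.984-fold for this gene alone. Over all tested genes the difference did not pass (edgeR adjusted p = 0.218). It passed without DMSO 3, at -0.36 (SE 0.122, edgeR adjusted p = 0.0295), a fit in which 21.9% of all tested genes were called. With any other single library left out, IRAK1 did not pass (edgeR adjusted p from 0.286 to 0.475).

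IRAK2, a second partner of IRAK4, had 62, 92 and 71 counts with inhibitor and 136, 107 and 74 with DMSO. The libraries inhibitor 1, at 5.06 CPM, and DMSO 1, at 10.6 CPM, were the lowest and the highest, and the other 4 lay between 7.39 and 8.33 CPM, so the groups overlapped. The log2 fold change of IRAK2 was -0.40 (SE 0.207, edgeR adjusted p = 0.301), and it did not pass without DMSO 3 either, at -0.47 (SE 0.197, edgeR adjusted p = 0.0829). Its size rested in part on the libraries at either end: without inhibitor 1 it was -0.22 (edgeR adjusted p = 0.718) and without DMSO 1 it was -0.27 (edgeR adjusted p = 0.545). IRAK3, the inactive family member, had 1 count in inhibitor 2, 1 in DMSO 3 and none in the other 4 libraries. The exact Poisson limits allow up to 0.172 CPM with inhibitor and 0.157 with DMSO. No fold change is given for IRAK3 or MYD88, since both groups were at or under the 3 counts that a count of 0 allows.

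**Figure D1:**
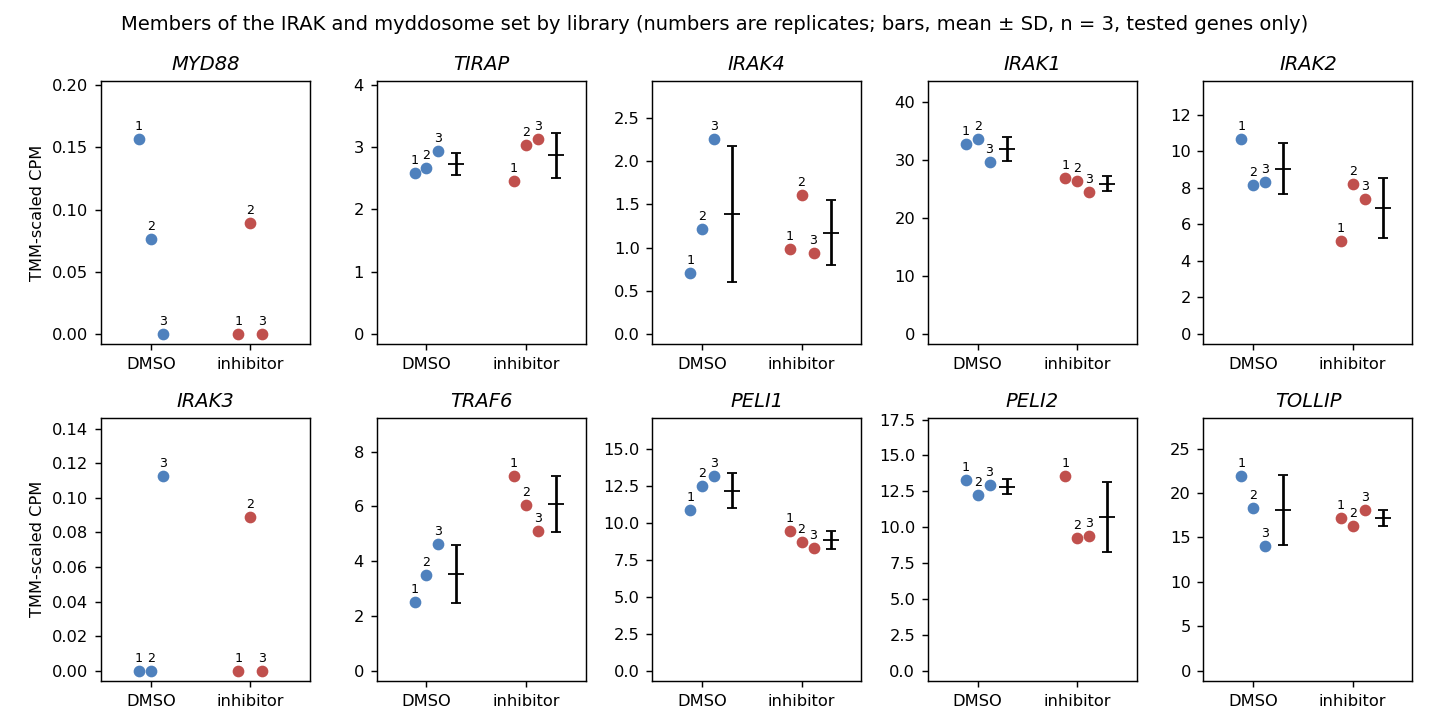
Each panel plots 1 gene as TMM-scaled CPM (y axis, from 0, own scale per panel) in the 3 DMSO (blue) and 3 inhibitor (red) libraries, numbered by replicate, with the mean and SD beside the points for the 8 tested genes. TRAF6 is the gene whose inhibitor libraries all lie above the DMSO libraries, and IRAK1 and PELI1 are those whose inhibitor libraries all lie below.

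TRAF6, the ubiquitin ligase that receives the signal from the IRAKs, differed most. It had 87, 68 and 49 counts in inhibitor 1 to 3 and 32, 46 and 41 in DMSO 1 to 3, or 7.11, 6.06 and 5.10 CPM against 2.50, 3.50 and 4.62 CPM. The 2 groups did not overlap, and the gap between inhibitor 3 and DMSO 3 was narrow. The means were 6.09 ± 1.01 CPM (SD, n = 3) with inhibitor and 3.54 ± 1.06 CPM (SD, n = 3) with DMSO, a 1.76-fold higher value (log2 fold change 0.82, SE 0.240) with a 95% interval from 1.23-fold to 2.52-fold for this gene alone. With adjustment over all tested genes it missed the threshold of 0.05 (edgeR adjusted p = 0.0749, unadjusted p = 0.00432). It passed without DMSO 3, at 1.01 (SE 0.238, edgeR adjusted p = 0.00246), a fit in which 21.9% of all tested genes were called. TRAF6 did not pass without DMSO 1 or 2 or inhibitor 1, 2 or 3, fits in which 3.76%, 1.63%, 1.1%, 0.87% and 1.32% were called.

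Of the Pellino ligases among the members, PELI1 had 116, 98 and 80 counts with inhibitor against 139, 164 and 117 with DMSO. In CPM the inhibitor libraries lay at 9.47, 8.74 and 8.32 and the DMSO libraries at 10.9, 12.5 and 13.2, again without overlap. The log2 fold change of PELI1 was -0.45 (SE 0.161), a ratio of 0.730 with a 95% interval of 0.575 to 0.927 for this gene alone, and it did not pass over all tested genes (edgeR adjusted p = 0.133) nor without DMSO 3, at -0.41 (edgeR adjusted p = 0.0708). PELI2 had 166, 104 and 90 counts with inhibitor and 170, 161 and 115 with DMSO. Its DMSO libraries were close together, at 12.8 ± 0.530 CPM (SD, n = 3), whereas inhibitor 1, at 13.6 CPM, lay above them and inhibitor 2 and 3, at 9.27 and 9.36 CPM, below (log2 fold change -0.25, SE 0.178, edgeR adjusted p = 0.474). Without inhibitor 1 the value of PELI2 was -0.46 (edgeR adjusted p = 0.302), without inhibitor 2 it was -0.15, without inhibitor 3 -0.17 and without DMSO 3 -0.26 (edgeR adjusted p = 0.295), so none of these passed.

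TOLLIP, the restraining adaptor, had 211, 183 and 174 counts with inhibitor and 280, 241 and 125 with DMSO. The 3 inhibitor libraries were within 16.3 to 18.1 CPM, while the DMSO libraries ran from 14.1 CPM in DMSO 3 to 21.9 CPM in DMSO 1 and so enclosed them. The log2 fold change was -0.08 (SE 0.168, edgeR adjusted p = 0.838), with a 95% interval from 0.736-fold to 1.21-fold. Without DMSO 1 the value of TOLLIP was 0.07 and without DMSO 3 it was -0.24, neither of them past the threshold.

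**Figure D2:**
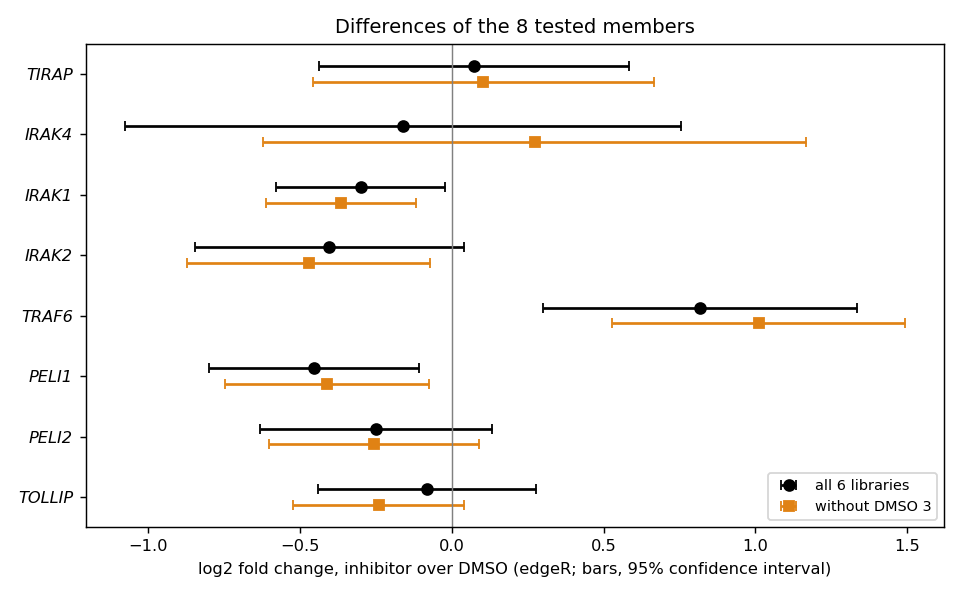
Points are edgeR log2 fold changes, inhibitor over DMSO (x axis), of the 8 tested genes, with 95% confidence intervals for each gene alone, from all 6 libraries (black circles) and without DMSO 3 (orange squares). TRAF6 lies at 0.82 and 1.01, IRAK1 at -0.30 and -0.36, and the intervals of IRAK4 are the widest, on both sides of 0.

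Taken as a set, none of the 8 tested genes passed the adjusted threshold of edgeR, where 3.87% of all 11216 tested genes did. At an unadjusted p under 0.05 there were 3 of 8, namely TRAF6, PELI1 and IRAK1, against 19.5% of all tested genes. The same 3 genes were those whose groups did not overlap, against 25.5% of all tested genes. With 8 genes these shares are coarse and were not compared by a test. DESeq2, limma-voom without weights and the fit with a replicate block also called none of them, where they called 5.3%, 3.96% and 2.92% of all tested genes. The log2 fold change was negative in 6 of the 8 genes and positive in 2, with a median of -0.206 against -0.00438 for all tested genes, and a median absolute value of 0.276 against 0.182. The members were not matched to all tested genes by count, and fold changes of thinly counted genes are less precise. The medians therefore do not show that the members changed more. Since these are libraries of bulk RNA, fewer cells that transcribe a gene and less RNA per cell cannot be told apart.

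The precision of a fold change varied with the counts behind it. Among tested genes with a mean count under 25, where IRAK4 lies with a mean of 14, the median SE of the log2 fold change was 0.359 and 1.71% were called. For genes with a mean of 25 to 100 counts, which include TIRAP, TRAF6 and IRAK2, these were 0.225 and 3.14%. Genes from 100 to 500 counts, among them IRAK1, TOLLIP, PELI1 and PELI2, had a median SE of 0.157, and 4.3% were called. Above 500 counts, where none of the members lies, the median SE was 0.131 and 4.37% were called. The members' own SEs ran from 0.129 for IRAK1 to 0.427 for IRAK4.

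The position of DMSO 3 among the control libraries varied from gene to gene, and values of base composition are given beside it. In DMSO 3, relative to the mean of DMSO 1 and 2 on the log2 CPM scale, IRAK4 was 1.13 higher and TRAF6 0.61 higher, and their annotated transcripts have mean GC contents of 40.2% and 44.5%. At the other end TOLLIP, with 62.0% GC, was at -0.50 and IRAK1, with 63.3% GC, at -0.16. The remaining 4 tested genes, with 49.8% to 55.7% GC, lay between -0.16 and 0.17. Over the 8 tested members Spearman's rho between GC content and this shift was -0.786, and over 9216 tested genes with a mean count of at least 50 it was -0.492. The members include IRAK4 and TIRAP, whose mean counts of 14 and 31.3 lie under that limit, so the sets are filtered differently. Genes of 1 library share its preparation and depth and are not independent replicates. DMSO 1, part of the reference in this shift, had a trend of its own: over the same genes Spearman's rho between GC content and a library's deviation from its group mean was 0.536 in DMSO 1, 0.129 in DMSO 2 and -0.492 in DMSO 3, against -0.116 to 0.153 in the inhibitor libraries. For DMSO 3 this deviation is the shift above on another scale, so its value is the same measure given again. Deviations within a group sum to 0, so such trends in DMSO 1 and DMSO 3 are partly set against each other. When the GC trend of each library was removed, TRAF6 was at 0.78 (edgeR adjusted p = 0.0460) and passed, among 6.49% of all genes tested that way, and IRAK1 was at -0.23 (edgeR adjusted p = 0.282). The GC content of the amplified products themselves was not used here.

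**Figure D3:**
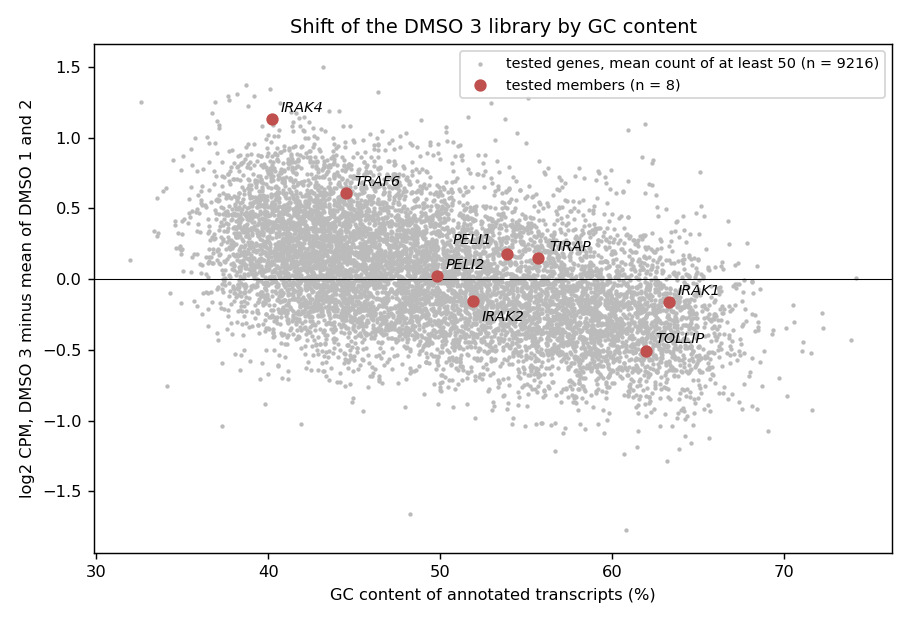
The y axis is the log2 CPM of DMSO 3 minus the mean of DMSO 1 and 2, and the x axis the mean GC content (%) of a gene's annotated transcripts, for 9216 tested genes (grey) and the 8 tested members (red). IRAK4 and TRAF6 sit high at low GC content, at 1.13 and 0.61, and TOLLIP sits low at high GC content, at -0.50.

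The fits without DMSO 3 and with library quality weights in limma-voom, which give a library that departs from its group less influence, called more genes throughout, 21.9% and 23.2% of all tested. In these fits 2 members (TRAF6 and IRAK1) and 3 members (TRAF6, IRAK1 and PELI1) passed, TRAF6 as higher and the others as lower with inhibitor. Read against those shares, 2 of 8 lies near the background of its fit, and 3 of 8 was not tested against that of the other. TRAF6 also passed with no filter on low counts (edgeR adjusted p = 0.0158), in which 5.32% of the genes were called. TRAF6 was higher with inhibitor in all 15 alternatives, from 0.61 to 1.01, PELI1 lower in all 15, from -0.54 to -0.39, and IRAK1 lower in all 15, from -0.36 to -0.23. The groups of these genes did not overlap in CPM, so leaving out a library could hardly change a sign. The other alternatives reuse the same libraries, and the constant signs lend no separate support.

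**Figure D4:**
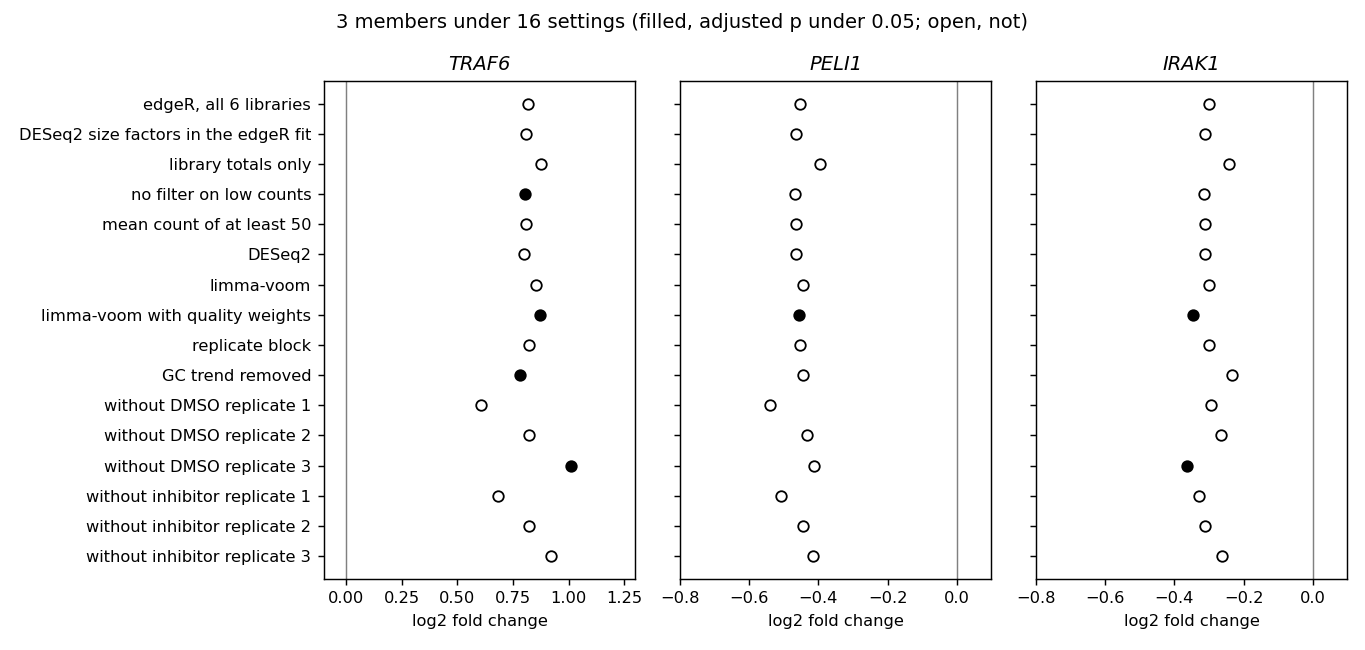
The x axis is the log2 fold change, inhibitor over DMSO, of TRAF6, PELI1 and IRAK1 under the main fit and 15 alternatives (y axis); filled points have an adjusted p under 0.05. The sign of each gene is the same throughout, and the filled points are 4 for TRAF6, 1 for PELI1 and 2 for IRAK1. The settings reuse the same libraries, whose groups did not overlap in CPM for these genes, so the constant signs are no separate support.

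The other genes of the pathway were read from 4 lists, of which 57 of 60 genes were used here and 37 were tested. Of these 37, 1 rose and none fell (edgeR), against 3.87% of all tested genes called in either direction. An unadjusted edgeR p under 0.05 was found for 5 of the 37, against 19.5% of all tested genes. Their median log2 fold change was -0.00354, beside -0.00438 for all tested genes. The riser was TNFAIP3, the gene of A20, an enzyme that edits ubiquitin chains and restrains TRAF6-dependent signalling. It had 180, 132 and 159 counts with inhibitor and 112, 118 and 74 with DMSO, or 14.3 ± 2.41 CPM (SD, n = 3) against 8.69 ± 0.331 CPM (SD, n = 3). Every inhibitor library was above every DMSO library, and the log2 difference of 0.72, with an SE of 0.169, passed (edgeR adjusted p = 0.0326). The call was lost without DMSO 2, at 0.74 (edgeR adjusted p = 0.112), and without inhibitor 1, 2 or 3, at 0.70, 0.84 and 0.61 (edgeR adjusted p = 0.156, 0.0563 and 0.157), fits in which 0.87% to 1.63% of all tested genes were called. It was kept without DMSO 1 and without DMSO 3, at 0.71 and 0.67.

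Receptors that signal through the myddosome were mostly near 0. The list held 18 genes: receptors, co-receptors and UNC93B1, which is neither. Of these, 7 had no count in any library, among them TLR5, TLR7 and TLR8. Of the 18, 4 were tested, UNC93B1 among them, and none passed. TLR4, the receptor for bacterial lipopolysaccharide, was well counted, with 635, 626 and 513 counts with inhibitor and 486, 582 and 276 with DMSO. After scaling TLR4 was at 53.7 ± 1.99 CPM (SD, n = 3) against 37.8 ± 6.61 CPM (SD, n = 3), without overlap, and did not pass in the main fit (log2 fold change 0.50, SE 0.142, edgeR adjusted p = 0.0674). It passed in 5 of 15 alternatives, DESeq2 (adjusted p = 0.0421) and the fit without DMSO 3 (0.37, edgeR adjusted p = 0.0197) among them. Its co-receptor genes LY96 and CD14 had 3 and 6 counts summed over the 6 libraries. IL1RAP, the shared chain of the interleukin-1 receptor family, overlapped between groups, at -0.39 (SE 0.202, edgeR adjusted p = 0.303). DMSO 3 was the highest of its group, at 27.1 CPM against 17.2 and 14.9 CPM in DMSO 1 and 2, and without that library IL1RAP was at -0.12 (edgeR adjusted p = 0.596).

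Of 23 genes listed as the relay, not all of them below TRAF6, 21 were tested and none passed. Of these, 10 had a positive and 11 a negative log2 fold change, with a median of -0.00354. PELI3, a Pellino ligase on this list, had the opposite sign to PELI1 and PELI2, at 0.35 (SE 0.214, edgeR adjusted p = 0.386). It passed with library quality weights, at 0.54 (limma-voom adjusted p = 0.0391), where 23.2% of all tested genes were called. MAP2K4, a kinase of the JNK branch, was at 0.47 (SE 0.143, edgeR adjusted p = 0.0846) and passed without DMSO 3, at 0.44 (edgeR adjusted p = 0.0283). UBE2V1, which helps form the ubiquitin chains that TRAF6 builds, was at 0.40 (SE 0.158, edgeR adjusted p = 0.175) and likewise passed without DMSO 3, at 0.52 (edgeR adjusted p = 0.0113). Of the arm that runs through the adaptor TRIF instead of MYD88, 4 genes were tested and none passed; RIPK1, a kinase of that arm and of death receptor signalling, came closest, at 34.7 ± 2.34 CPM (SD, n = 3) against 24.8 ± 0.529 CPM (SD, n = 3) without overlap (log2 fold change 0.48, SE 0.128, edgeR adjusted p = 0.0509). RIPK1 passed in 6 of 15 alternatives, including DESeq2 (adjusted p = 0.0384) and the fit without DMSO 3 (0.45, edgeR adjusted p = 0.00831). TRAF3, a ligase of the same arm, was at -0.15 (SE 0.159, edgeR adjusted p = 0.649). Single control libraries moved it, to -0.33 without DMSO 3, where it passed (edgeR adjusted p = 0.0339), and to -0.000819 without DMSO 2. Of 11 inhibitors of the pathway used, 8 were tested and TNFAIP3 alone passed. Without DMSO 3, 8 pathway genes were called higher and 2 lower, where 21.9% of all tested genes were called.

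**Figure D5:**
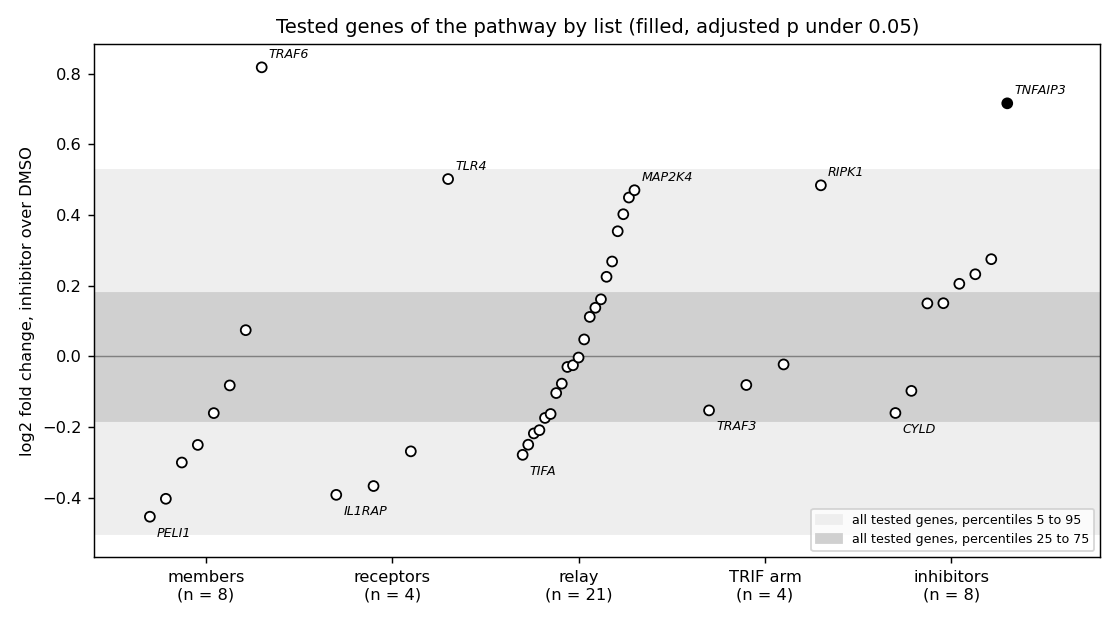
The y axis is the edgeR log2 fold change, inhibitor over DMSO, of each tested gene in the IRAK and myddosome set and the 4 pathway lists (x axis); grey bands hold the percentiles 25 to 75 and 5 to 95 of all tested genes, and the filled point has an adjusted p under 0.05. TRAF6, at 0.82, and TNFAIP3, at 0.72, lie above the upper band, which ends at 0.53.

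As a description of pattern, the genes whose log2 CPM followed the best counted members most closely over the 6 libraries were found among 9246 genes with a mean count of at least 50. For IRAK1 these were HIST1H2AG, RHBDF2 and R3HDM2, with Pearson correlations of 0.994, 0.994 and 0.990. For TOLLIP they were PPP1R18, EIF4EBP1 and SFRP1, at 0.997, 0.992 and 0.992. These correlations rest on 6 libraries, were picked as the highest of many, and share the libraries' depth and composition, DMSO 3 included.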

How the data were processed

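The authors deposited raw counts per gene symbol for each of the 6 libraries, read through the Ion AmpliSeq transcriptome panel, per the labels' protocols. HTSeq, hg19 and DESeq2 1.20.0 appear in the submitters' processing notes without their roles; the aligner and the use of strand are not given in the sources used here, so reads from an antisense partner of TIRAP, PELI1, PELI2 or IRAK3 cannot be told apart. Since hg19 is another build than the annotation used here, no coordinates are given. No molecular identifiers are named, so the Poisson limits cover counting error only; the intervals of fold changes come from edgeR and include the spread between libraries.

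edgeR 4.0.16 in R 4.3.3 tested 11216 of 20683 genes (filterByExpr, minimum count 10 and minimum total 15; TMM; quasi-likelihood test on group; Benjamini-Hochberg adjustment over all tested genes, threshold 0.05). The SE is the absolute log2 fold change divided by the square root of F. CPM were scaled by TMM, with a prior count of 2 on the log2 scale. Alternatives were other scaling and filters, DESeq2 1.42.0, limma 3.58.1 (voom, with and without library quality weights), a replicate block, removal of each library's GC trend (local regression, span 0.5; GC of GENCODE transcripts matched by symbol for 99.2% of tested genes) and leaving out each library. The main fit and several alternatives were run on simulated counts with known changes. Apart from those changes, all simulated libraries shared the same mean per gene. They had no departure of DMSO 3 and no GC trend, so they cannot show how the fits handle either. Named genes were all members, any called gene of a pathway list or else its 2 genes with the smallest p, and the 3 genes most like each of the 2 best counted members. Genes cited only as zero or near-zero counts, and CDH1, CLDN4, VIM, SPARC, PTPRC, CD68, CSF1R, LYZ, CD3D, PELI3 and UNC93B1, were picked after their values were seen. The members, lists and tests were chosen with earlier results of these data known. OTULIN was listed under its older symbol, and 3 list genes are not analysed here.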

Additional observations from a re-analysis of the deposited data

How the results depend on the processing

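The 8 tested members gave 118 values under the alternatives. Of these 108 kept their direction and their side of the threshold, 7 newly passed and 3 changed sign, none of them called: IRAK4 was at 0.0185 with library quality weights and at 0.272 without DMSO 3, and TOLLIP at 0.0669 without DMSO 1. With 1 library left out, IRAK4 ranged from -0.503 to 0.272 and TOLLIP from -0.241 to 0.0669. The number of members called was 0 in the main fit, 1 with no filter on low counts, 1 with the GC trend removed and 3 with library quality weights, and 0 to 2 with 1 library left out. For the other pathway genes it was 1 of 37 tested. It was 3 of 37 with library totals only, 3 of 49 with no filter and 3 of 37 with DESeq2. With the GC trend removed it was 2 of 37 and with quality weights 12 of 37. With 1 library left out it was 0 to 10 of 37 or 38 tested, the 10 being without DMSO 3. Over all genes it was 434 (3.87% of those tested), 499 with library totals only, 831 (5.32%) with no filter and 594 (5.3%) with DESeq2. With the GC trend removed it was 722 (6.49%) and with quality weights 2606 (23.2%). With 1 library left out it was 99 (0.87%) to 2496 (21.9%, without DMSO 3). The cause was not tested. Library totals only moved the share of higher calls from 50.5% to 67.3%. With the replicate number as a block, 327 genes, 0 members and 1 other pathway gene were called. Same-numbered libraries did not deviate together (correlations of -0.0788, -0.0448 and -0.119), and none correlated best with its own number, so the numbers were not taken as pairs. With a filter at a mean count of 50, IRAK4 and TIRAP were not tested. MYD88 and IRAK3 were too thinly counted for a test in the main fit, and the wide interval of IRAK4 goes with both low counts and a wide spread among the DMSO libraries (CV of 56.7%), which were not separated.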

Other observations

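A ratio of 2 genes within a library is free of library scaling, but not of a library's trend with GC content. TRAF6 and IRAK1 differ in this, at 44.5% and 63.3% GC, and the part of that trend in the ratios was not tested. The following pairs were chosen after the values were seen and were not tested. In CPM, every inhibitor library was above every DMSO library for TRAF6 and below every DMSO library for IRAK1 and PELI1. The ratios of TRAF6 to IRAK1 and to PELI1 therefore could not overlap between groups, and they lend the TRAF6 difference no separate support. TRAF6 counts amounted to 26.4%, 23.0% and 20.8% of IRAK1 counts in inhibitor 1 to 3 and to 7.66%, 10.4% and 15.6% in DMSO 1 to 3, and the groups did not overlap. Relative to PELI1, TRAF6 was at 75%, 69.4% and 61.2% with inhibitor and 23.0%, 28.0% and 35.0% with DMSO, again without overlap. IRAK2 counts were 18.8%, 31.1% and 30.1% of IRAK1 counts with inhibitor and 32.5%, 24.3% and 28.1% with DMSO, with overlap. PELI1 was at 35.2%, 33.1% and 33.9% of IRAK1 with inhibitor and 33.3%, 37.2% and 44.5% with DMSO, with overlap and with the highest value in DMSO 3. In every one of these ratios but that of IRAK2 to IRAK1, DMSO 3 was the highest of the DMSO libraries.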
